A study of Mus musculus with 6 samples.

Results

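Sugar, monocarboxylate and organic ion transporters are described here across the mouse colonic mucosa. The genes were chosen by symbol alone: every gene with a probe set of exactly 1 platform symbol starting with Slc2a, Slc5a, Slc16a, Slc22a or Slco, each read by its brightest probe set over all arrays. This gave 74 genes on 126 probe sets, of 18193 genes so named on the array, and 38 of the 74 lay above the signal filter, against 12437 of all genes. One of the 74, Slc2a4rg-ps, carries the Slc2a prefix but is a pseudogene related to a regulator of Slc2a4, not a transporter. Gene expression was measured on Affymetrix 3' arrays, 3 with the genotype label p38a knockout and 3 labelled wild type, each group with the letters A, B and C. All 6 samples were colonic mucosa of untreated C57BL/6 mice, with intestinal epithelial cells given as the cell type. Mapk14 is the gene of p38a, a kinase that responds to stress. The sources used here do not give the age of the mice, the Cre driver or the cells in which the gene was deleted. The comparison asks which transporter transcripts differ in colonic mucosa labelled p38a knockout.

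Absorptive cells of the colon take up short-chain fatty acids made by bacteria, mainly through monocarboxylate carriers, and export or import lactate by the same route. The Slc2a family holds facilitative sugar carriers of the GLUT type. The Slc5a family holds sodium-coupled carriers of sugars, vitamins and monocarboxylates, and the Slc16a family the MCT carriers of monocarboxylates and related molecules. Slc22a proteins carry organic cations, anions and carnitine, and Slco proteins, the OATP carriers, take up organic anions such as prostaglandins, steroid conjugates and bile acids.

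The wild-type arrays differed among themselves, A and C in brightness and RNA quality and B in pancreatic transcripts. The deposited signals were dimmer in wild type A and C, with a 2% trimmed mean of 192 to 222 in the arrays labelled knockout, against 141, 188 and 117 for wild type A, B and C. Gapdh control probes at the 3' end over those at the 5' end, a ratio that goes up as RNA degrades, gave 0.859 to 0.954 in the arrays labelled knockout, against 1.10, 0.989 and 1.45 for wild type A, B and C. Expression is given below as log2(signal + 16), quantile normalized, a scale on which 4 is the floor and fold changes of dim genes are understated. Mapk14 itself read 9.72, 9.91 and 9.73 in the arrays labelled knockout, against 9.31, 9.44 and 9.37 in wild type, and thus lay higher there (log2 difference 0.41, limma adjusted p = 0.902, exact two-sided permutation p = 0.1, the smallest that 3 against 3 arrays can give). Whether its probe sets lie in the deleted part is not known here, so the groups are called by their labels. Its other probe sets differed by -0.06 to 0.62. The epithelial markers Epcam and Krt8 read 13.17 or more in all 6 arrays, and the summed level of 8 epithelial markers was 101.7 to 104.5 in the arrays labelled knockout and 102.3 to 105.5 in wild type. The summed level of 6 pancreas markers was 33.3 to 35.1 in the arrays labelled knockout and 32.8 to 46.6 in wild type, the highest in wild type B, where Cela2a read 7.71 against 5.01 or less in the other arrays. That of 6 smooth muscle markers was 32.6 to 39.6 in the arrays labelled knockout and 30.6 to 32.3 in wild type, without overlap. All 4 tested T cell markers had the lower mean in the arrays labelled knockout, with Cd3e at -1.01 and no overlap. Cd3e passed the signal filter only through wild type, with means of 5.01 in the arrays labelled knockout and 6.02 in wild type. For Cd3g, Cd3d and Cd8a the groups overlapped. The summed level of 6 T cell markers was 33.3 to 37.9 in the arrays labelled knockout and 35.2 to 42.4 in wild type. Of 3 tested small intestine markers 1 was higher and 2 were lower. Fabp2, an enterocyte fatty acid binding protein, differed by -0.62 with no overlap, and Slc10a2 by 1.35 with overlapping groups. The summed level of 8 small intestine markers was 47.9 to 52.1 in the arrays labelled knockout and 48.6 to 52.2 in wild type. The part of these markers in the results below, those against wild type B alone included, was not tested. No label ties the samples to separate animals, so p-values measure only the spread between these samples, and the number of arrays limits the precision.

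No transporter gene passed over all genes tested in limma at an adjusted p of 0.05, where 0% of all genes did. At an unadjusted p under 0.05 there were 2 of 38, Slc22a12 and Slco2a1, both lower in the arrays labelled knockout, which is 5.26% beside a background of 3.94%, made up of 2.2% lower and 1.74% higher. Slc22a12 passed the signal filter, a mean of 5.10 over all arrays, only through wild type, with a mean of 4.69 in the arrays labelled knockout and 5.68 in wild type, so its place in these counts is no support for a difference. The groups did not overlap for 2 of 38 genes, Slc22a12 and Slc5a6, 1 lower and 1 higher, which is 5.26% beside 9.06% of all genes, 4.38% lower and 4.68% higher. None was 2-fold apart with no overlap, beside 0.289% of all genes. In the arrays labelled knockout 18 of the 38 genes had the higher mean (47.4%, against 53.2% of all genes) and 20 the lower (52.6%, against 46.8%). That split was 34 higher and 4 lower on the signals as deposited and 23 higher and 15 lower with array medians centred, where the median of all genes was 0.43 and 0.20. With quantile normalization the median log2 difference was -0.03, beside 0.02 over all genes tested. The difference was under 0.5 in size for 36 of 38, and its 95% interval lay within 1 either way for 26 of 38. A p above the threshold therefore does not show that the other 12 genes were equal within 2-fold. Nor is this shown for the dim genes among the 26, whose fold changes are understated on this scale.

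**Figure D1:**
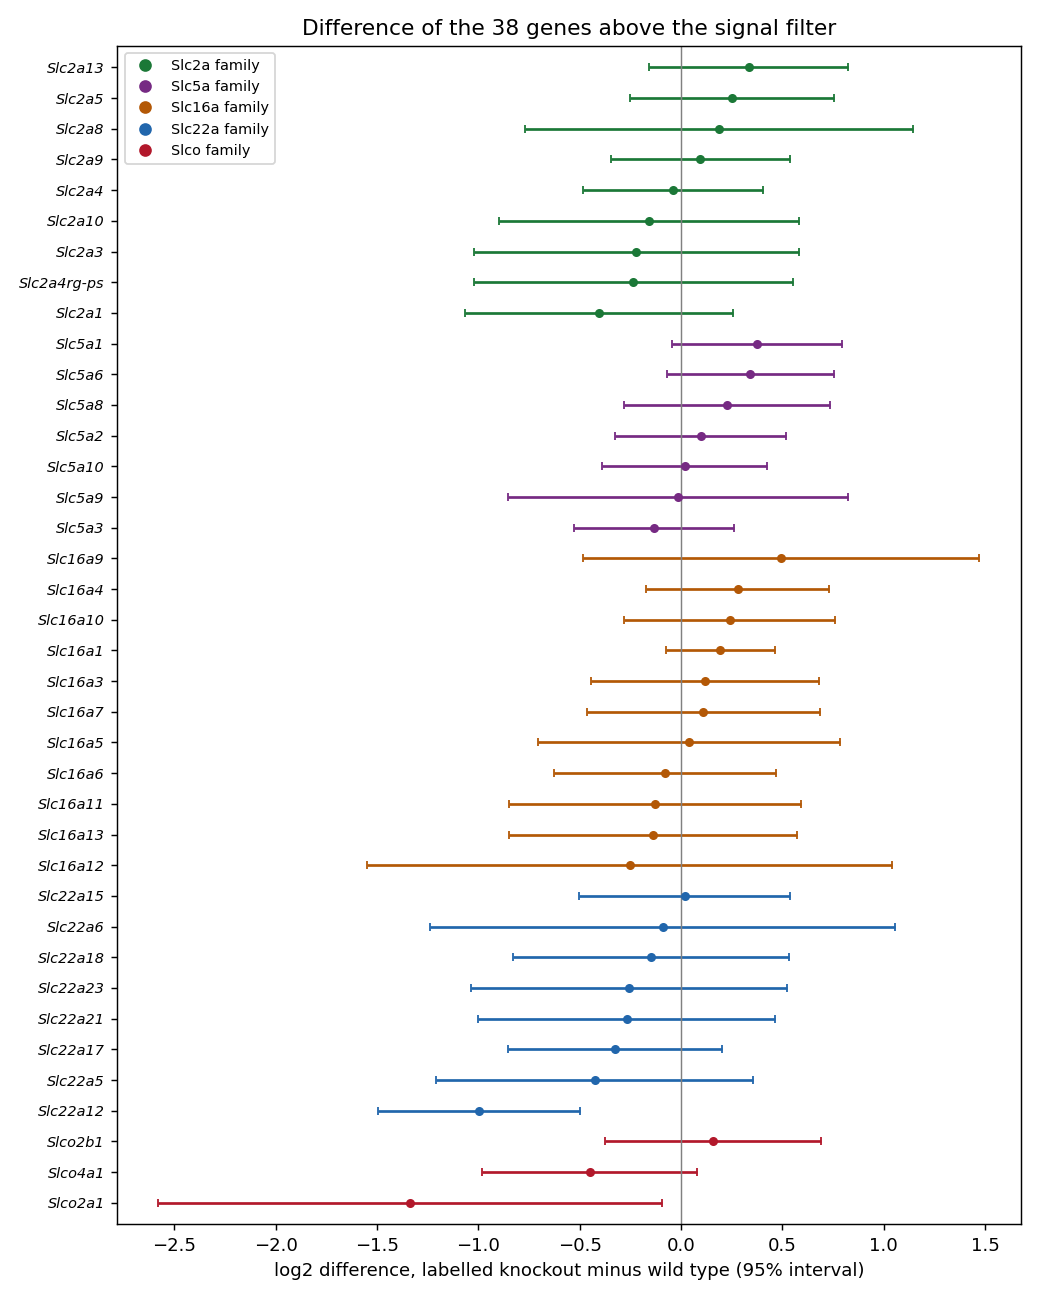
Log2 difference of each of the 38 genes above the signal filter (x axis, arrays labelled knockout minus wild type, points with 95% intervals from limma), grouped by family. The intervals of Slc22a12 and Slco2a1 lie below 0, those of the other genes include 0, and no gene passed after adjustment over all genes tested.

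Among the facilitative sugar carriers, 9 of 12 Slc2a genes were above the filter, 4 higher and 5 lower, with a median of -0.04. Slc2a1 encodes GLUT1, the basal glucose carrier of many cells. It read 11.22, 11.52 and 11.52 in the arrays labelled knockout, against 12.08, 11.09 and 12.30 for wild type A, B and C. Wild type A and C thus lay above all 3 arrays labelled knockout, while wild type B lay below them, and the groups overlap. The log2 difference was -0.40 (SE 0.29, 95% interval -1.06 to 0.26, limma adjusted p = 0.902). All 3 probe sets of Slc2a1 lay lower, by -0.40 to -0.50, but the sign turned to 0.33 against wild type B alone and to 0.22 once adjusted for the Gapdh ratio. On the signals as deposited Slc2a1 read 0.01, where the median of all genes was 0.43. Slc2a1 thus followed which wild-type arrays it was set against.

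Slc2a5, the fructose carrier GLUT5, read 6.03, 5.81 and 6.22 in the arrays labelled knockout, against 6.07, 5.60 and 5.64 in wild type, which is a difference of 0.25 (SE 0.22, limma adjusted p = 0.902). The groups overlap through wild type A. The difference was 0.40 without wild type A, 0.15 without the array labelled knockout C and 0.0029 with array weights. Slc2a13, a proton-coupled inositol carrier, had the largest difference of the family on the higher side at 0.33 (SE 0.21), with 8.90, 8.71 and 9.08 in the arrays labelled knockout against 8.67, 8.83 and 8.18 in wild type. Its lowest value was in wild type C, and wild type B lay within the range of the arrays labelled knockout. Slc2a8, an intracellular hexose carrier, spanned 5.77 to 7.55 within wild type alone, wider than the 6.49 to 7.02 of the arrays labelled knockout. The remaining members Slc2a3, Slc2a4, Slc2a9, Slc2a10 and Slc2a4rg-ps differed by -0.24 to 0.09 with overlapping groups. Slc2a2, the GLUT2 carrier of small intestine and liver, lay below the filter.

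Of the sodium-coupled carriers, 7 of 13 Slc5a genes were above the filter, 5 higher and 2 lower, with a median of 0.10. Slc5a1 encodes SGLT1, the glucose and galactose carrier of the brush border. It read 10.30, 10.19 and 10.70 in the arrays labelled knockout, against 9.85, 10.23 and 9.98 in wild type, which is a difference of 0.38 (SE 0.18, 95% interval -0.04 to 0.80, limma adjusted p = 0.902). Only wild type B reached into the range of the arrays labelled knockout. The second probe set of Slc5a1 read 9.48, 9.37 and 9.95, against 9.05, 9.27 and 9.21 in wild type, with no overlap and a difference of 0.42. Both probe sets of Slc5a1 thus lay higher. The brightest one read 0.16 against wild type B alone and 0.20 adjusted for the Gapdh ratio.

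Slc5a6, the sodium-dependent carrier of biotin and pantothenate, was the one of the 38 genes above the filter whose arrays labelled knockout all lay above all wild-type arrays. It read 6.58, 6.63 and 6.61 there, against 6.11, 6.34 and 6.35 in wild type, which is a difference of 0.34 (SE 0.18, limma adjusted p = 0.902, exact two-sided permutation p = 0.1). Non-overlap on the higher side was found for 4.68% of all genes tested. The difference stayed between 0.26 and 0.38 when any 1 array was left out. It was 0.27 against wild type B alone and 0.39 adjusted for the Gapdh ratio.

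Slc5a8 encodes SMCT1, the sodium-coupled carrier of short-chain fatty acids and lactate in the colon. It read 10.92, 11.10 and 11.75 in the arrays labelled knockout, against 10.98, 10.88 and 11.23 in wild type, and the groups overlap. The difference of 0.23 (SE 0.22, limma adjusted p = 0.902) rested on the array labelled knockout C, without which it was -0.02. Slc5a3, a sodium-coupled inositol carrier, differed by -0.14 (SE 0.17), and its 3 probe sets all lay lower, by -0.13 to -0.27. Slc5a2, Slc5a9 and Slc5a10 differed by -0.02 to 0.10, and for Slc5a2 and Slc5a9 the probe sets disagreed in direction.

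The monocarboxylate carriers had 11 of 13 Slc16a genes above the filter, 7 higher and 4 lower, with a median of 0.11. Slc16a1 encodes MCT1, a proton-coupled carrier of lactate and butyrate in colonocytes. Its values were close in all arrays, 12.15, 12.29 and 12.44 in those labelled knockout against 12.02, 12.17 and 12.11 in wild type. The difference of 0.19 (SE 0.12, limma adjusted p = 0.902) has a 95% interval of -0.08 to 0.46, so a change of 2-fold either way lies outside it. Slc16a3, the lactate exporter MCT4, read 5.57, 4.92 and 5.45 in the arrays labelled knockout, against 5.36, 4.91 and 5.32 in wild type. The groups overlap almost completely, and the difference was 0.12 (SE 0.25, limma adjusted p = 0.938).

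Slc16a9, whose human protein is a carnitine carrier, had the highest positive difference of the 38 genes at 0.49 (SE 0.43, limma adjusted p = 0.902). It read 7.15, 6.90 and 7.40 in the arrays labelled knockout, against 5.71, 6.67 and 7.58 in wild type. The spread lay within wild type, where A was the lowest of all 6 arrays and C the highest. Without wild type A the difference was 0.02, and adjusted for the Gapdh ratio it was 1.18. Its other probe sets read 6.89, 6.99 and 7.03 against 5.29, 6.31 and 6.87 in wild type, and 5.56, 5.46 and 5.68 against 4.15, 5.28 and 5.41 in wild type. In both of these the groups did not overlap, with differences of 0.81 and 0.62, so all 3 probe sets lay higher in the arrays labelled knockout. The one at 0.62 had a mean of 4.95 in wild type, below the filter of 5.10, and passed only through the arrays labelled knockout. Its non-overlap and direction are therefore no support for a difference.

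Slc16a10, an aromatic amino acid carrier, read 6.33, 6.14 and 6.05 in the arrays labelled knockout, against 5.91, 6.28 and 5.62 in wild type. Wild type B lay within the range of the arrays labelled knockout, and the difference of 0.24 (SE 0.23, limma adjusted p = 0.902) turned to -0.11 against wild type B alone and to -0.12 adjusted for the Gapdh ratio. Slc16a12, known in humans as a creatine carrier, varied most within wild type, with 5.47, 5.92 and 6.70 in the arrays labelled knockout against 6.55, 7.31 and 5.0 in wild type. For Slc16a12 wild type B lay above all arrays labelled knockout, wild type C below them and wild type A within their range. The groups thus overlap, and the difference was -0.25 (SE 0.56). Slc16a4, Slc16a5, Slc16a6, Slc16a7, Slc16a11 and Slc16a13 differed by -0.14 to 0.28, all with overlapping groups.

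**Figure D2:**
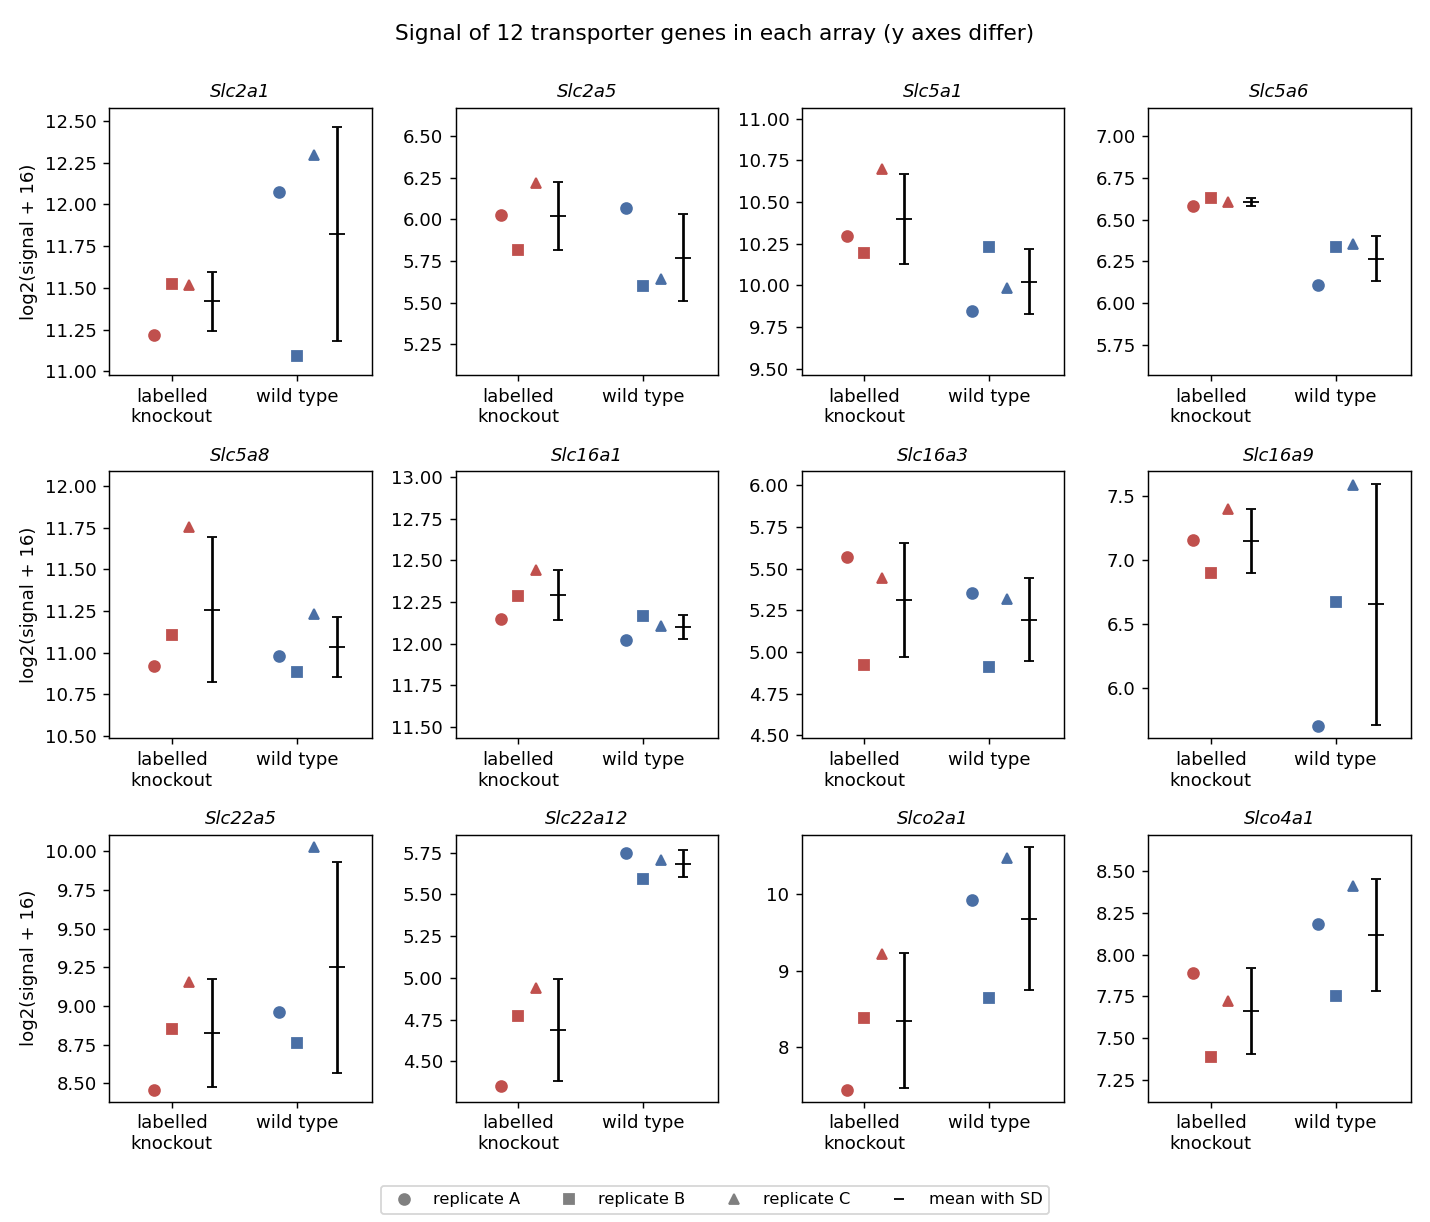
Log2(signal + 16) after quantile normalization of 12 transporter genes (y axes, which differ between panels) in the 3 arrays labelled knockout (red) and the 3 wild-type arrays (blue), with replicate letters as symbols and black bars for the mean with SD. Slc5a6 and Slc22a12 show groups that do not overlap, and for Slc2a1 and Slco2a1 wild type A and C lie above all arrays labelled knockout.

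The organic ion carriers of the Slc22a family had the fewest genes above the filter after Slco as a share, 8 of 21, with 1 higher, 7 lower and a median of -0.26. Slc22a12 encodes URAT1, known as a urate exchanger of the kidney. Its brightest probe set read 4.35, 4.77 and 4.94 in the arrays labelled knockout, against 5.75, 5.59 and 5.71 in wild type, with no overlap. The log2 difference was -0.997 (SE 0.22, unadjusted limma p = 0.00169, limma adjusted p = 0.902, exact two-sided permutation p = 0.1). All 3 arrays labelled knockout lay below the filter of 5.10, so the gene was tested only because of its wild-type values. These values lie close to the floor of 4, and the deposited signals were 4.54 to 16.5 in the arrays labelled knockout and 30.4 to 31.9 in wild type. The other probe set of the gene went the opposite way, with 4.52, 5.47 and 5.72 against 4.56, 4.51 and 6.08 in wild type, a difference of 0.19. The suffix of the brightest probe set marks possible reading of other transcripts. Of 4 kidney markers, Lrp2, Cubn and Slc34a1 of the proximal tubule and Umod of the thick ascending limb, 1 was above the filter, and their summed level was 20.1 to 20.6 in the arrays labelled knockout and 18.6 to 20.3 in wild type; their part in the result was not tested. The difference of Slc22a12 was -0.91 against wild type B alone and -0.98 adjusted for the Gapdh ratio. It was -1.84 with a pseudocount of 1, -0.43 with a pseudocount of 64 and -0.40 with the mean of its probe sets.

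Slc22a5 encodes OCTN2, the high-affinity carnitine carrier. It read 8.46, 8.85 and 9.16 in the arrays labelled knockout, against 8.96, 8.76 and 10.03 in wild type, and the groups overlap apart from wild type C. The difference of -0.43 (SE 0.34, limma adjusted p = 0.902) was -0.04 without wild type C and turned to 0.06 against wild type B alone. Slc22a18, an imprinted gene of the family, read 8.80, 9.01 and 9.69 in the arrays labelled knockout, against 9.41, 8.83 and 9.71 in wild type, a difference of -0.15 (SE 0.30, limma adjusted p = 0.935). Its probe sets disagreed in direction. Slc22a23 read 8.89, 9.25 and 9.43 in the arrays labelled knockout, against 9.56, 8.68 and 10.11 in wild type, with A and C above and B below, as for Slc2a1. Slc22a6, Slc22a15, Slc22a17 and Slc22a21 differed by -0.33 to 0.02 with overlapping groups. Slc22a4, the OCTN1 carrier, was below the filter, and Slc22a3 was not analysed here.

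Only 3 of 15 Slco genes were above the filter. Slco2a1, the prostaglandin uptake carrier, had the largest difference of all 38 genes. It read 7.44, 8.38 and 9.22 in the arrays labelled knockout, in letter order, against 9.93, 8.64 and 10.47 for wild type A, B and C. Wild type A and C lay above all arrays labelled knockout, and wild type B lay between those labelled knockout B and C, so the groups overlap. The signal was 2.52-fold lower (log2 difference -1.34, SE 0.54, 95% interval -2.58 to -0.09, unadjusted limma p = 0.0383, limma adjusted p = 0.902, exact two-sided permutation p = 0.2). All 4 probe sets of Slco2a1 lay lower, by -0.55 to -1.34. On the dimmest of them the groups did not overlap, with 4.63, 5.10 and 5.16 in the arrays labelled knockout against 6.05, 5.58 and 6.11 in wild type. That probe set passed the filter of 5.10 only through wild type, with means of 4.96 in the arrays labelled knockout and 5.91 in wild type. Its non-overlap is therefore no support for a difference. Against wild type A and C alone the difference was -1.86, and against wild type B alone -0.30. Adjusted for the Gapdh ratio it was -0.49, and without the array labelled knockout A it was -0.88.

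Slco2a1 is also known in vascular endothelium, so endothelial markers were set beside it. Of 7 such markers 2, Kdr and Flt1, were above the filter. Both had the lower mean in the arrays labelled knockout, by -0.36 and -0.34, with overlapping groups. Flt1 passed the filter of 5.10 only through wild type, with means of 4.94 in the arrays labelled knockout and 5.28 in wild type. Its direction is therefore no support for a difference. Below the filter Cdh5, Tek and Emcn had the lower mean there, by -0.21, -0.33 and -0.26. Pecam1 and Vwf, also below the filter, had the higher mean, by 0.05 and 0.16. The summed level of the 7 markers was 33.0 to 34.5 in the arrays labelled knockout and 35.1 to 35.3 in wild type, with Pecam1 between 4.18 and 4.38 in all arrays, near the floor. In bulk mucosa fewer cells of a type and less RNA per cell cannot be told apart, and the part of these markers in the Slco2a1 result was not tested.

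Slco4a1, a carrier known for thyroid hormone, read 7.89, 7.38 and 7.72 in the arrays labelled knockout, against 8.18, 7.75 and 8.41 in wild type, a difference of -0.45 (SE 0.23, 95% interval -0.98 to 0.08, limma adjusted p = 0.902). Wild type A and C lay above all arrays labelled knockout, and wild type B within them. The difference was -0.09 against wild type B alone and -0.14 adjusted for the Gapdh ratio. Slco2b1, a carrier of steroid sulfates, read 7.0, 6.53 and 6.78 in the arrays labelled knockout, against 6.27, 6.66 and 6.90 in wild type, and its probe sets disagreed in direction, from -0.47 to 0.16.

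Promoter sequence is shown for 3 of these genes, Slco2a1 and Slc2a1, which were high together in wild type A and C, and Slc5a1, which was low there. RefSeq promoter windows of GRCm38.p6, 300 bases that span each annotated start, were matched for 60 of the 74 genes. The windows are chr9:103008237-103008536 for Slco2a1, chr4:119108495-119108794 for Slc2a1 and chr5:33103969-33104268 for Slc5a1, all on the plus strand and written 5′ to 3′. Capitals mark TATAAA and GGGCGG on either strand, the letters of a TATA box and of a GC box.
Slco2a1: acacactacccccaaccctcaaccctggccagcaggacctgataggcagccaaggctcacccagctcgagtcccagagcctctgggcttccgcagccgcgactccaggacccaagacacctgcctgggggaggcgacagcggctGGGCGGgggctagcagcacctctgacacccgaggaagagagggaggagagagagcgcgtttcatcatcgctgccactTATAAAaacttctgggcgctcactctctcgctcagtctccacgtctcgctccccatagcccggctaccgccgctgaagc
Slc2a1: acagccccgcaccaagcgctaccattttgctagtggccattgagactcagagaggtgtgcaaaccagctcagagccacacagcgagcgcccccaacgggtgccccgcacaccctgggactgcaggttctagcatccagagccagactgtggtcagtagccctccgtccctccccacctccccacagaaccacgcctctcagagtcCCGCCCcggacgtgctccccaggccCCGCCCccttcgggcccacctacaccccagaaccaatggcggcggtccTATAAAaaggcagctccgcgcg
Slc5a1: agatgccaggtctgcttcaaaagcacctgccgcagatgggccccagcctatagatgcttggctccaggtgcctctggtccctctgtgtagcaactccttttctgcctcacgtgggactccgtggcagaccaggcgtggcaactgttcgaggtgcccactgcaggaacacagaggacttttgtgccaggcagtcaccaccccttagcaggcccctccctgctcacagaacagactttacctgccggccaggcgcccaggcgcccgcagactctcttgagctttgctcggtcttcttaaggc
TATAAA has 1 match in Slco2a1, at -29 from the annotated start, and 1 in Slc2a1, at 28 after it, and occurs in 13.6% of all 32851 promoter windows. GGGCGG has 1 match in Slco2a1 and 2 in Slc2a1, and occurs in 35.7% of all windows, and the Slc5a1 window holds neither. The letters TGANTCA of an AP-1 site (7.81% of all windows, both strands) and TGACGTCA of a CRE (1.79%, both strands) are in none of the 3 windows, where N stands for any base. These matches do not overlap each other in these windows, and a match is a description of letters only. No factor binding was measured in these samples.

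**Figure D3:**
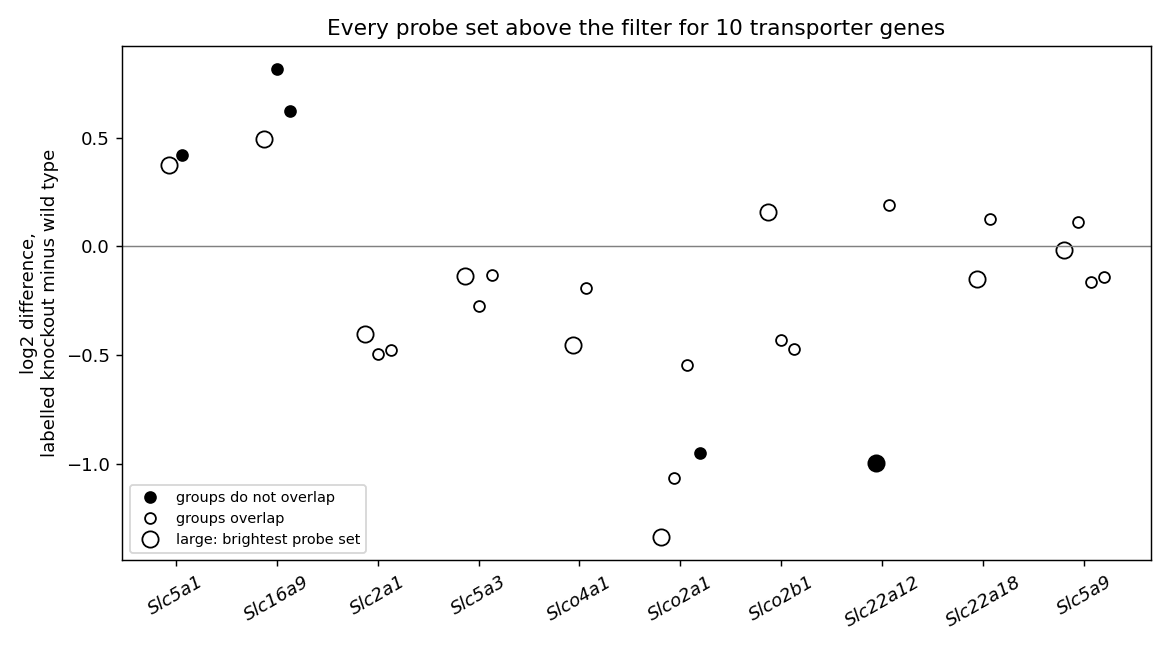
Log2 difference (y axis, arrays labelled knockout minus wild type) of every probe set above the filter for 10 transporter genes, with large symbols for the brightest probe set and filled symbols where the groups do not overlap. The probe sets of Slc5a1, Slc16a9, Slc2a1, Slc5a3, Slco4a1 and Slco2a1 each fall on 1 side of 0, and those of Slco2b1, Slc22a12, Slc22a18 and Slc5a9 on both. The filled symbols of Slco2a1 and Slc22a12 and the lower filled symbol of Slc16a9 passed the filter only through the group where they are high.

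Of 17 tested genes with several probe sets above the filter, 5 had probe sets that disagreed in direction, namely Slc22a12, Slc22a18, Slc5a2, Slc5a9 and Slco2b1. The arrangement of wild-type arrays was similar to that of the array as a whole. Wild type A and C both lay above all arrays labelled knockout for 6 of 38 genes (15.8%, against 16.6% of all genes tested) and both below for another 6 (15.8%, against 20.2%). Wild type B lay within the range of the arrays labelled knockout for 18 of 38 (47.4%, against 51.4%). Of the 12 genes with wild type A and C on 1 side, Slc22a12 and Slc5a6 were the only ones with wild type B on that side as well. Without wild type B the smallest limma adjusted p among the transporter genes was 0.145, for Slc2a1 at -0.77, and 6 genes had an unadjusted p under 0.05, where 17.2% of all genes did.

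**Figure D4:**
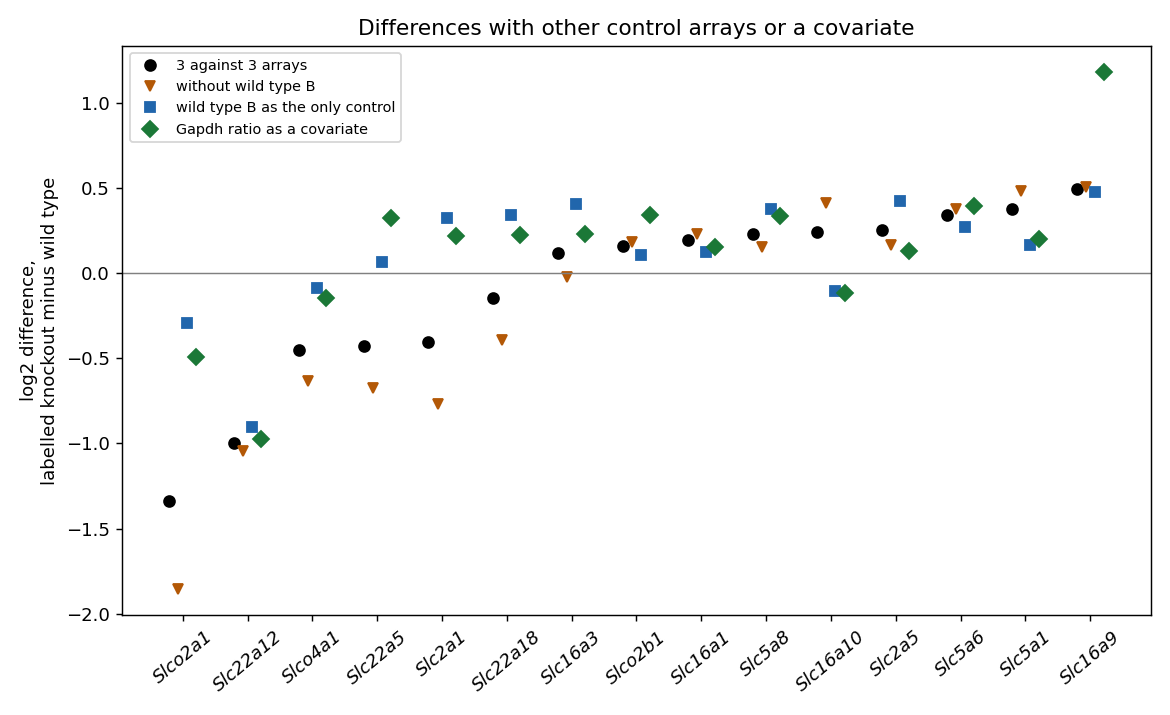
Log2 difference (y axis, arrays labelled knockout minus wild type) of 15 transporter genes with all arrays, without wild type B, against wild type B alone and adjusted for the Gapdh 3' to 5' ratio. Slc2a1, Slc22a5, Slc22a18 and Slc16a10 turn against wild type B alone and adjusted for the Gapdh ratio, and Slc16a3 turns without wild type B. The other genes keep their side of 0 in these settings, the smallest value being -0.09 for Slco4a1 against wild type B alone. In a setting not shown, without wild type A, Slc16a9 read 0.02. Slc22a12 passed the signal filter only through wild type.

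The other genes of these pathways gave no call either. Of 43 listed genes 31 were above the filter, 13 higher and 18 lower, 2 of them with an unadjusted p under 0.05, where 3.94% of all genes had one, and none with an adjusted p under 0.05 in limma. The groups did not overlap for 3 of the 31, Abcc4, Acss2 and Mlxip, where 9.06% of all genes had no overlap. The median difference of the 31 was -0.07. Among 7 tested ancillary proteins and scaffolds 1 was higher and 6 lower. Bsg, the basigin chaperone that brings MCT1 and MCT4 to the cell surface, read 10.19, 10.30 and 10.30 in the arrays labelled knockout, against 9.97, 10.05 and 10.31 in wild type, a difference of 0.16 (SE 0.15). Stom, a stomatin known to bind GLUT1 in red cells, read 9.02, 9.80 and 9.57, against 10.43, 9.66 and 10.73 in wild type, a difference of -0.81 (SE 0.31, unadjusted limma p = 0.029, limma adjusted p = 0.902, exact two-sided permutation p = 0.2). Like Slc2a1 it was high in wild type A and C, and against wild type B alone it read -0.19.

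Of the prostaglandin genes 3 of 5 were tested, 2 higher and 1 lower. Abcc4, an ABC carrier known to export prostaglandins and cyclic nucleotides, read 7.58, 7.91 and 7.62 in the arrays labelled knockout, against 6.68, 6.99 and 6.53 in wild type. The groups did not overlap, and the difference was 0.97 (SE 0.20, unadjusted limma p = 0.00127, limma adjusted p = 0.902, exact two-sided permutation p = 0.1). It was 0.72 against wild type B alone and 0.77 adjusted for the Gapdh ratio. Hpgd, which oxidises prostaglandins after uptake, read 11.53, 11.52 and 11.68 in the arrays labelled knockout, against 11.53, 11.42 and 11.36 in wild type, a difference of 0.14 (SE 0.12). Ptges, the third tested, differed by -0.07 with overlapping groups. Slco2a1 had the lower mean with overlapping groups and Abcc4 the higher mean, and whether these differences are linked was not tested.

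**Figure D5:**
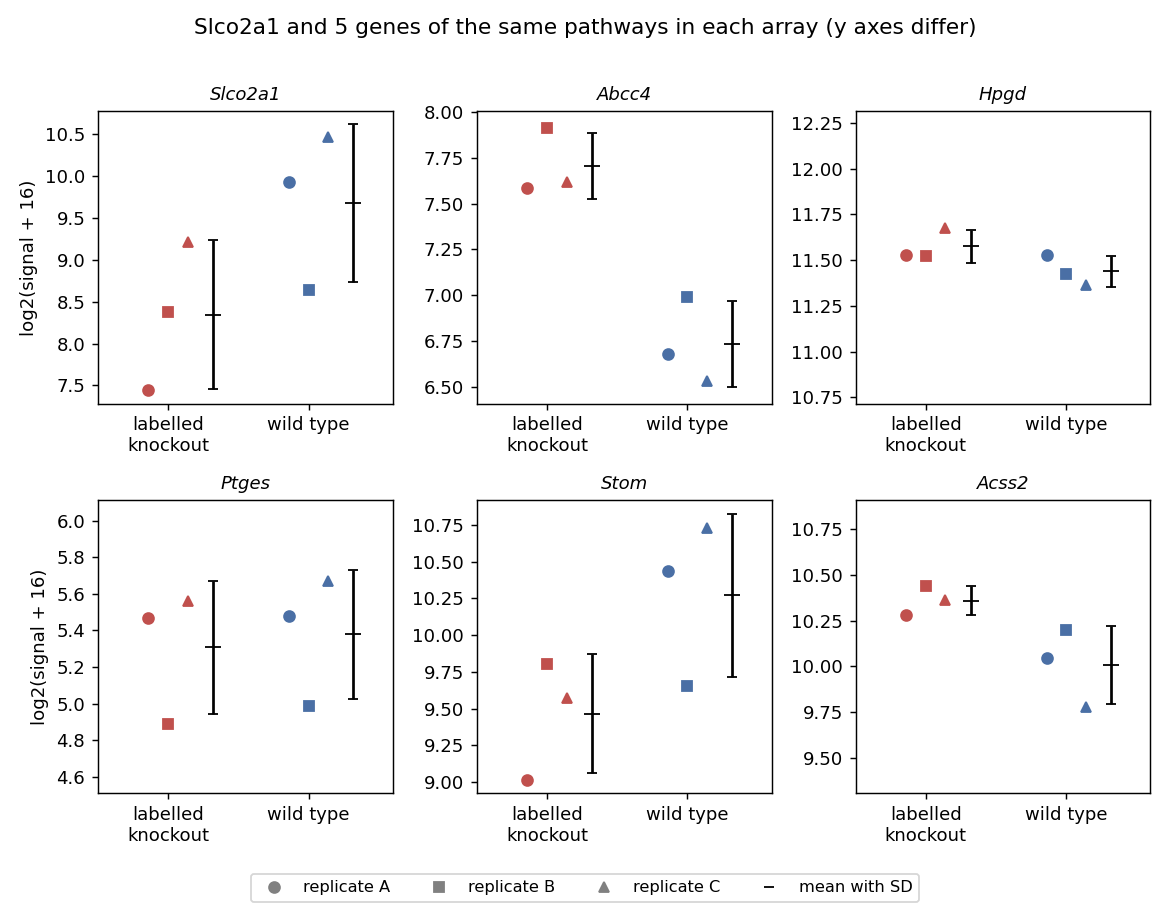
Log2(signal + 16) after quantile normalization (y axes, which differ between panels) of Slco2a1 and 5 listed pathway genes in the 3 arrays labelled knockout (red) and 3 wild-type arrays (blue), with replicate letters as symbols and black bars for the mean with SD. Abcc4 and Acss2 show no overlap between the groups, and for Slco2a1 and Stom wild type A and C lie above all arrays labelled knockout.

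Genes that use the carried molecules were 5 higher and 4 lower of 9 tested. Acss2, which makes acetyl-CoA from acetate, read 10.28, 10.44 and 10.36 in the arrays labelled knockout, against 10.04, 10.20 and 9.78 in wild type, with no overlap and a difference of 0.35 (SE 0.15, limma adjusted p = 0.902). Of 11 tested regulators 5 were higher and 6 lower, and Mlxip, a glucose-sensing factor, had no overlap at -0.38 (SE 0.20). Ffar2, a receptor for short-chain fatty acids, was the 1 tested of 4 receptors and differed by -0.23 (SE 0.21). The groups overlapped for Ffar2.

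The other 36 transporter genes lay below the filter, with means of 4.13 to 5.09 and no single array above 6.04. They were 3 of 12 Slc2a, 6 of 13 Slc5a, 2 of 13 Slc16a, 13 of 21 Slc22a and 12 of 15 Slco genes. Carriers known from liver, kidney or testis were among them, such as Slco1b2 and Slc22a7 of liver, Slc22a8 of kidney and Slco6c1 of testis. These genes were left out of the main test, and a low signal does not show that a transcript is absent.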

How the data were processed

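The authors deposited linear signal intensity values of 45101 probe sets, and the submitters' processing notes name MAS5. The sources used here give no version or scaling target, and the unequal trimmed means show no common target. A pseudocount of 16 was added before log2, and arrays were quantile normalized with limma 3.58.1 (R 4.3.3). Probe sets whose mean lay below the 40th percentile (a signal of about 18.4) and 64 control probe sets were left out. The brightest probe set of each gene with 1 platform symbol was kept, which gave 12437 genes.

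limma's moderated test with a mean-variance trend (4 residual and 4.19 prior degrees of freedom) compared the groups, with p-values adjusted over all genes by Benjamini-Hochberg at 0.05. Single probe sets were compared with an exact permutation test. The transporter genes, pathway lists and markers were chosen with earlier results of these data known. Genes given in full were those with an unadjusted p under 0.05, those 2-fold apart with no overlap, and a list of 18 transporters known in gut epithelium, of which 14 were tested. Slc2a13, Slc16a12, Slc22a23, Bsg, Hpgd, Ptges, Acss2, Mlxip and Ffar2 were described after their values were seen. Alternatives were other scalings, pseudocounts, filters, probe set rules, variance priors, array weights, a replicate block, arrays left out and the Gapdh ratio as a covariate.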

Additional observations from a re-analysis of the deposited data

How the results depend on the processing

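No transporter gene had an adjusted p under 0.05 in limma in any setting run, leaving out each array included (lowest and highest count 0 and 0). The count at an unadjusted p under 0.05, 2 in the report, was 9 on the signals as deposited (8 higher and 1 lower, beside 17.1% of all genes), 7 with no filter (4.49%), 1 with a filter at the 60th percentile (3.97%), 1 with the mean of probe sets (4.04%) and 10 with array weights (6 higher and 4 lower, beside 16.1%). Leaving out the array labelled knockout A, B or C gave 1 (2.15%), 1 (2.68%) and 2 (3.01%). Leaving out wild type A, B or C gave 1 (1.83%), 6 (17.2%) and 4 (3.79%). Centred on array medians the count was 3 (1 higher and 2 lower, beside 3.84%). The count 2-fold apart with no overlap, 0 in the report, was 1 with array medians centred, 1 with a pseudocount of 1 and 1 with array weights (Slc22a12 in these 3). It was 0 to 2 when 1 array was left out. The same share over all genes, 0.289% in the report, was not computed for these settings, so no change beyond that of all genes can be read from them. Non-overlap at any size went from 9.06% of all genes in the report to 36.8% without wild type B. The 2-fold count has no value with a covariate. The median difference was 0.31 on the signals as deposited, 0.15 against wild type B alone and 0.21 adjusted for the Gapdh ratio, and -0.07 to 0.09 when 1 array was left out. The median of all genes was 0.43 on the signals as deposited, 0.20 with array medians centred, -0.02 against wild type B alone and -0.0082 adjusted for the Gapdh ratio.

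Signs turned on the signals as deposited for Slc22a18 (0.37), Slc22a5 (0.10), Slc2a1 (0.013) and Slco4a1 (0.051), all below the median of all genes there, and with array medians centred for Slc22a18 (0.14). With the mean of probe sets Slco2b1 read -0.25 and with array weights Slc16a3 read -0.053. Against wild type B alone Slc16a10 (-0.11), Slc22a18 (0.34), Slc22a5 (0.065) and Slc2a1 (0.33) turned, and adjusted for the Gapdh ratio Slc16a10 (-0.12), Slc22a18 (0.22), Slc22a5 (0.32) and Slc2a1 (0.22). Leaving out 1 array gave ranges of -0.025 to 0.31 for Slc16a3, -0.41 to 0.050 for Slc22a18, -0.020 to 0.40 for Slc5a8 and -0.012 to 0.30 for Slco2b1. Other probe sets read -0.070 and -0.14 for Slc16a10, 0.19 for Slc22a12, 0.13 for Slc22a18, -0.43 and -0.47 for Slco2b1 and -0.065 for Mapk14. The cause was not tested.

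The replicate letters did not pair the arrays throughout, with correlations of same-letter deviations of -0.04 for A, -0.11 for B and 0.45 for C. The replicate block gave 3 transporter genes at an unadjusted p under 0.05 in limma, beside 5.56% of all genes. At an adjusted p under 0.05 it gave 0 transporter genes, beside 3 of all genes. limma's default estimate of array weights did not converge, so its gene-by-gene estimate was used. With 1 control array the lone array is assumed to vary like the others. The alternatives for Abcc4 and Stom were chosen after seeing the data, and their directions held in each one run. For genes near the floor, signal over background limits what can be compared.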

Other observations

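Of the 36 transporter genes below the signal filter, 5 had an unadjusted limma p under 0.05 when all genes were tested with no filter. Their limma adjusted p was 0.914 each. Above and below the filter together, 7 of 74 transporter genes had an unadjusted p under 0.05, beside 4.49% of all genes. The share over all genes below the filter alone was not computed. Slc2a2, the glucose carrier GLUT2, read 4.14, 4.20 and 4.68 in the arrays labelled knockout, against 4.69, 5.12 and 4.97 in wild type. Slc22a8, an organic anion carrier known in kidney, read 4.47, 4.21 and 4.30 in the arrays labelled knockout, against 4.91, 5.04 and 4.98 in wild type, and Slco4c1 read 4.08, 4.24 and 4.52, against 4.64, 4.85 and 4.96 in wild type. In these 3 genes the groups did not overlap. Slco3a1 had means of 4.29 in the arrays labelled knockout and 4.83 in wild type with overlapping groups. Slc22a30 had means of 4.74 in the arrays labelled knockout and 4.31 in wild type with no overlap. Other probe sets went the opposite way for Slco3a1, by 0.36 with no overlap and by 0.24 with overlap, and for Slc22a8, by 0.20. The other probe set of Slco4c1 went the same way, by -0.17. On their brightest probe sets no array of these 5 genes read above 5.12, with the floor at 4. With no filter 6 of 74 genes had no overlap, beside 9.32% of all genes.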
